A study of Mus musculus with 9 samples.

Results

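Imprinted genes were examined locus by locus in cells labelled neural, derived from mouse embryonic stem cells (mESCs) and carrying a tagged histone H4. The 38 genes were a list of symbols chosen with earlier results of these data known. Each was found among the 24100 Entrez gene rows of the count table, 37 by current symbol and 1, Nespas, by a synonym. They fall into 19 loci, and positions given here are those of RefSeq on GRCm38.p6. By textbook assignment 25 are expressed from the paternal allele, 10 from the maternal allele, and 3 (Gnas, Grb10 and Ddc) from an allele that depends on the tissue.

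Poly(A) RNA was sequenced from 9 libraries, 3 of each genotype. The H4K91R cells stably expressed an HA-tagged histone H4 with arginine in place of the lysine named in the label, introduced with a PiggyBac transposon. The H4K91Q cells expressed the same construct with glutamine at that lysine, and the H4WT cells expressed the tagged H4 unchanged. All 3 genotypes therefore carried a tagged H4 transgene, and its promoter, its sites of integration and whether a line was a single clone were not stated in the labels. Nothing in the labels says whether the 3 libraries of a genotype came from separate cultures, so the p-values measure the spread between these libraries, which may be technical. All sample descriptions carry the tag 4Ddif, which the labels do not explain. The study asked which genes change their expression in cells that carry these mutants.

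Genomic imprinting is the expression of a gene mainly from the chromosome inherited from a particular parent. It is set by DNA methylation laid down in the germ line at imprinting control regions and kept after fertilisation by factors such as the zinc finger protein ZFP57 and the DNA methyltransferase DNMT1. Many imprinted genes sit in clusters in which a long noncoding RNA is made from the chromosome on which the protein-coding genes are silent, and many act on embryonic growth or in the brain. The libraries here were counted per gene, so the reads of the maternal and paternal copies were added together and a total level cannot show which allele was read.

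Several imprinted transcripts are hosts of microRNAs, and the sequences of a few show what the host transcripts carry. RefSeq (GRCm38.p6) places 19 mature microRNAs from 10 microRNA genes in Mirg, a maternally expressed noncoding RNA at the end of the Dlk1-Meg3 cluster. The microRNAs of H19 and Mest are printed because both hosts were higher in both mutants, and a pair from Mirg because they share the seed GGUUGCC. Capitals mark the seed, bases 2 to 8. Mature microRNAs themselves were not measured in these libraries.
mmu-miR-675-5p: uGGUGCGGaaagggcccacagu
mmu-miR-675-3p: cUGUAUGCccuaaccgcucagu
mmu-miR-335-5p: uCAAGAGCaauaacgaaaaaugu
mmu-miR-335-3p: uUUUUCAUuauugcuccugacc
mmu-miR-453: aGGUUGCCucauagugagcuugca
mmu-miR-496a-5p: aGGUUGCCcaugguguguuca

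The promoter windows of 4 genes of the Dlk1-Meg3 cluster, chosen after the values were seen, are printed because all members of that cluster moved the same way. Each runs from 250 bases before to 50 bases after a start listed by RefSeq (GRCm38.p6), 5′ to 3′ on the gene's own strand. For Dlk1 that start lies inside the gene interval given with its values, and for the other 3 it is the first base of the interval. Capitals mark the letters TGCCGC, the core that ZFP57 binds when it is methylated, on either strand.
Dlk1 (chr12:109452573-109452872, plus strand): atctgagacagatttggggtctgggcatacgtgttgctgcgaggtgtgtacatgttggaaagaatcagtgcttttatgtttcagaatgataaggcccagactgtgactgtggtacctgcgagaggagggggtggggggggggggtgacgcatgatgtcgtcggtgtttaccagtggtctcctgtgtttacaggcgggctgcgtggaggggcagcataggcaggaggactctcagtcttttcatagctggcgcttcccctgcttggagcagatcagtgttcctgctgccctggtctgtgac
Meg3 (chr12:109540746-109541045, plus strand): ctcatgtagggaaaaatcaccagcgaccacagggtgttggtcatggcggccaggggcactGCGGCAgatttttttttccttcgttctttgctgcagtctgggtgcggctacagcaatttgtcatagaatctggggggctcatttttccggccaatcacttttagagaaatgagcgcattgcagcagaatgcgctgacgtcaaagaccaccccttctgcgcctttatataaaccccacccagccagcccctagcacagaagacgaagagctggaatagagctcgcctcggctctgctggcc
Rian (chr12:109603695-109603994, plus strand): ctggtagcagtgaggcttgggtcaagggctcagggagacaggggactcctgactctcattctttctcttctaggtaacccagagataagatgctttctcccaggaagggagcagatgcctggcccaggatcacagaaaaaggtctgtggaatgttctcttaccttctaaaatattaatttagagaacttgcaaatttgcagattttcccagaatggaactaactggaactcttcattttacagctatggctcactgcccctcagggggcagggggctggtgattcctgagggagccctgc
Mirg (chr12:109734731-109735030, plus strand): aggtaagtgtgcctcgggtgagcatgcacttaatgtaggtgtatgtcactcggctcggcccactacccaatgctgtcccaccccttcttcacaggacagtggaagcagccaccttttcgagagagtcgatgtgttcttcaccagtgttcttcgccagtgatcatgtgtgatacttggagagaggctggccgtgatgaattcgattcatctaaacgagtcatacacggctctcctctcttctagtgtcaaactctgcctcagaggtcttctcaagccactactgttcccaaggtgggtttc

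Among these windows the letters TGCCGC are present, read on the opposite strand, in that of Meg3. Windows were available for 30 of the 38 genes, and 11 of those 30 (36.7%) had at least 1 window with TGCCGC on either strand, against 13.1% of all 27025 genes with a window. The 11 were Zdbf2, Mcts2, Nnat, Mest, Nap1l5, Zim1, Snrpn, Igf2, Plagl1, Grb10 and Meg3. A gene can have more than 1 window, and TGCCGC was in 25.5% of the 47 imprinted windows and 11.6% of all 32851. The letters GCCAT, a core of the YY1 site, were in the windows of 16 of the 30 genes (53.3%), against 44.2% of all genes. By window the shares were 44.7% and 40.5%. The imprinted windows held a median of 12 CpG dinucleotides (quartiles 5 and 18.5) and all windows a median of 7 (quartiles 3 and 20). These counts describe letters in short windows, and neither methylation nor binding was measured.

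In these cells imprinted genes covered a wide range of levels. On a scale of CPM (counts scaled to a common library total) divided by the length in kilobases of the longest annotated transcript, Igf2, the insulin-like growth factor of the embryo, stood at 967 in H4K91R, 868 in H4K91Q and 1025 in H4WT libraries. H19, the maternally expressed noncoding RNA beside it, stood at 833 in H4K91R, 1022 in H4K91Q and 567 in H4WT libraries, so these genes changed places at the top of the order in H4K91Q. Mest and Gnas came next in all 3 genotypes. The lowest in H4WT was Rtl1, a gene derived from a retrotransposon, at 0.245. The 38 genes together took 1.84% to 1.94% of scaled counts in H4K91R libraries, 1.84% to 2.07% in H4K91Q libraries and 1.56% to 1.73% in H4WT libraries, ranges in which neither mutant overlapped H4WT.

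**Figure D1:**
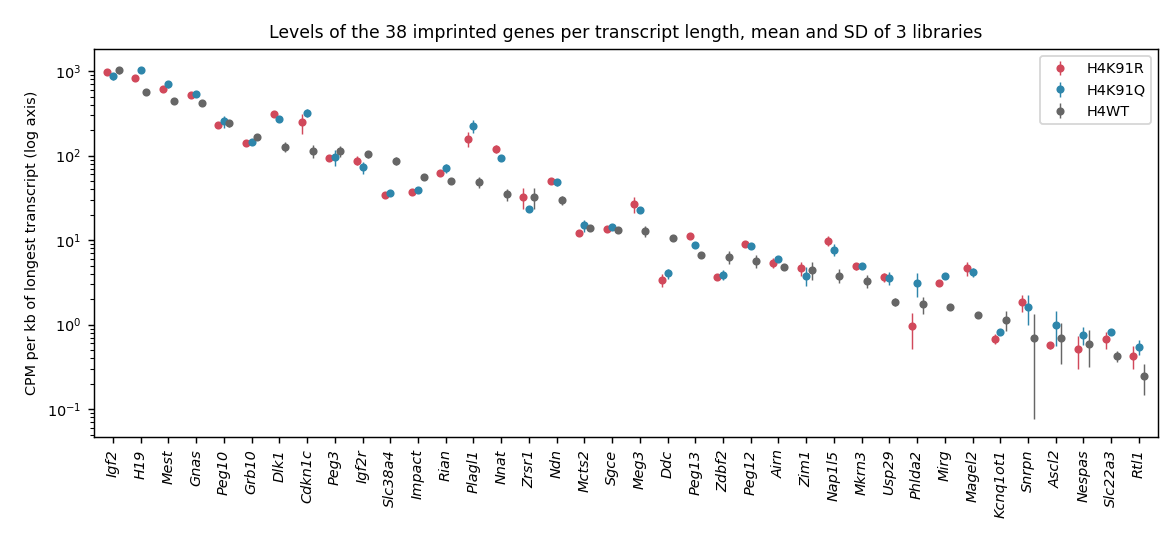
Mean level of each imprinted gene in CPM per kilobase of its longest annotated transcript (log axis) in H4K91R, H4K91Q and H4WT libraries, with bars of 1 SD over 3 libraries, ordered by the H4WT level. Igf2 and H19 lead, and the levels of the other genes fall away over more than 3 orders of magnitude to Rtl1.

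Against H4WT, more imprinted genes were higher than lower in both mutants. In H4K91R 19 of the 38 rose (50%) and 6 fell (15.8%), where 20.9% of the 14761 genes tested rose and 25.1% fell. In H4K91Q 20 rose (52.6%) and 7 fell (18.4%), where 22.4% of all genes rose and 23.8% fell. The median log2 change of the imprinted genes was 0.32 in H4K91R and 0.44 in H4K91Q, and that of all genes was -0.030 and 0.013. Because the list was chosen with earlier results of these data known, its excess over all genes is a description and not an independent test. A gene counts as higher or lower at an adjusted p below 0.05 in edgeR's quasi-likelihood test with Benjamini-Hochberg adjustment over all genes tested, called the edgeR adjusted p in what follows. All 38 genes passed the filter on low counts. Both comparisons use the same 3 H4WT libraries, so a deviation of those libraries enters both. In bulk RNA, more or fewer cells of a type and more or less RNA per cell cannot be told apart. In the same libraries the summed CPM of 14 neuron markers ran from 1290.2 to 1529.9 in H4K91R, from 1063 to 1154 in H4K91Q and from 550.5 to 644 in H4WT, and the part of this shift in the changes of the imprinted genes was not tested. Scaled by library size alone, the split of all genes was 5024 higher and 2009 lower in H4K91R, in place of 3081 and 3706, and 5552 and 2070 in H4K91Q, in place of 3300 and 3511.

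Among the genes that passed the test, 9 rose and 2 fell by at least 2-fold in each mutant. The share of all genes at that 2-fold limit was not computed. Without the limit, 20.9% of all genes rose and 25.1% fell in H4K91R, and 22.4% rose and 23.8% fell in H4K91Q. These shares also stand beside the counts by allele and by locus that follow. By allele, 13 of the 25 paternally expressed genes rose and 4 fell in H4K91R, with a median log2 change of 0.45, and 13 rose and 4 fell in H4K91Q, with a median of 0.37. Of the 10 maternally expressed genes 5 rose and 0 fell in H4K91R, with a median of 0.44, and 6 rose and 1 fell in H4K91Q, with a median of 0.77. Genes of both parental classes thus rose in both mutants. The difference between the classes was not tested.

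**Figure D2:**
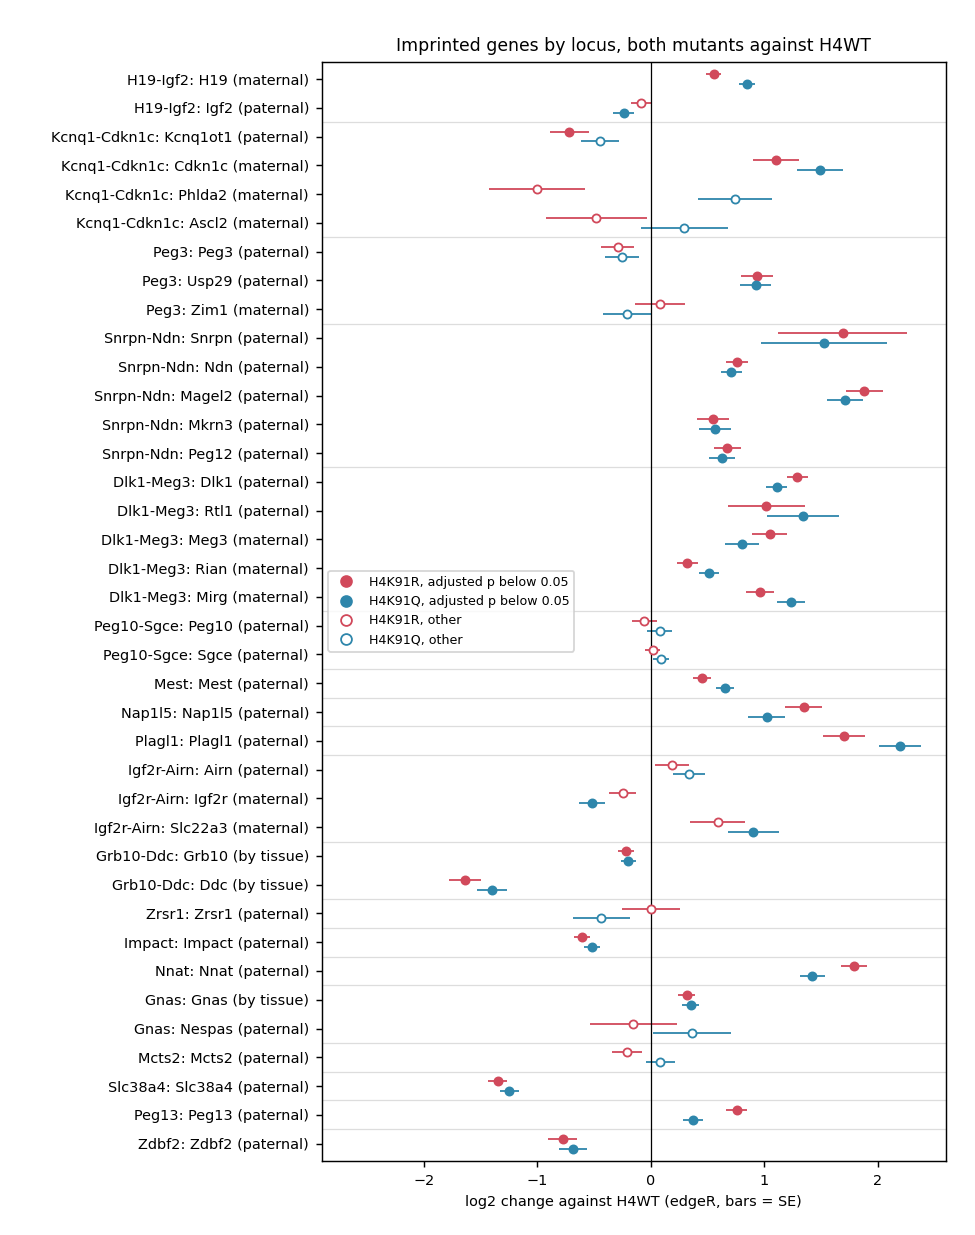
Log2 change against H4WT of the 38 imprinted genes, grouped by locus, for H4K91R (red) and H4K91Q (blue), with bars of 1 SE derived from the edgeR F statistic and filled points at an adjusted p below 0.05. All points of the Snrpn-Ndn and Dlk1-Meg3 loci lie right of 0 and are filled, from 0.32 for Rian to 1.88 for Magel2 in H4K91R, and the leftmost are Ddc and Slc38a4.

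The Dlk1-Meg3 cluster on chromosome 12 rose as a whole, 5 of 5 genes in each mutant, with a median log2 change of 1.02 in H4K91R and 1.11 in H4K91Q. Of all genes tested 20.9% rose in H4K91R and 22.4% in H4K91Q. The cluster holds paternally expressed protein-coding genes and maternally expressed noncoding RNAs, and both kinds rose. Dlk1 (chr12:109452485-109463336, plus strand), a transmembrane protein related to the Notch ligands, had 1459.5, 1359.8 and 1507 CPM in the H4K91R libraries, 1372, 1231 and 1203 CPM in the H4K91Q libraries and 672, 575 and 518 CPM in the H4WT libraries. No mutant library overlapped H4WT, and the log2 change was 1.29 ± 0.093 (SE) in H4K91R (edgeR adjusted p = 1.36e-07) and 1.11 ± 0.0926 in H4K91Q (edgeR adjusted p = 7.73e-07). Meg3 (chr12:109540996-109571729, plus strand), the first noncoding RNA of the cluster, had 421, 449 and 293 CPM in the H4K91R libraries, 343, 331 and 308 CPM in the H4K91Q libraries and 189, 159.7 and 216 CPM in the H4WT libraries. The mutant libraries again lay above all 3 H4WT libraries, with a log2 change of 1.05 ± 0.153 in H4K91R (edgeR adjusted p = 2.47e-04) and 0.80 ± 0.152 in H4K91Q (edgeR adjusted p = 0.00151).

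Rian (chr12:109603945-109661716, plus strand), a maternally expressed host of small nucleolar RNAs, moved least of the cluster. Its levels were 494, 537 and 476 CPM in the H4K91R libraries, 643, 573 and 504 CPM in the H4K91Q libraries and 429.7, 367 and 410.4 CPM in the H4WT libraries. Neither mutant overlapped H4WT, and the changes were 0.32 ± 0.092 in H4K91R (edgeR adjusted p = 0.0106) and 0.51 ± 0.0919 in H4K91Q (edgeR adjusted p = 4.23e-04). Without H4K91R replicate 2 the change in H4K91R was 0.27 and its edgeR adjusted p 0.0529. Mirg (chr12:109734981-109749458, plus strand), which hosts the microRNA pair shown with its seed, had 12.8, 11.4 and 11.9 CPM in the H4K91R libraries, 15.3, 15.1 and 13.4 CPM in the H4K91Q libraries and 6.25, 5.93 and 6.61 CPM in the H4WT libraries. It rose by 0.96 ± 0.124 in H4K91R (edgeR adjusted p = 2.35e-05) and 1.24 ± 0.12 in H4K91Q (edgeR adjusted p = 2.29e-06), with no overlap between a mutant and H4WT.

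Rtl1 (chr12:109564900-109604418, minus strand), a paternally expressed protein of the placenta and muscle derived from a retrotransposon, was low. Its levels were 3.51, 2.75 and 1.87 CPM in the H4K91R libraries, 3.73, 2.69 and 4.1 CPM in the H4K91Q libraries and 2.16, 0.926 and 1.59 CPM in the H4WT libraries. The H4K91R and H4WT libraries overlapped, while all 3 H4K91Q libraries lay above H4WT. The log2 change was 1.02 ± 0.34 in H4K91R (edgeR adjusted p = 0.0241), a call that ended without H4K91R replicate 1 (0.77, edgeR adjusted p = 0.118), without H4K91R replicate 2 (edgeR adjusted p = 0.0522) or without H4WT replicate 2 (0.58, edgeR adjusted p = 0.21). In H4K91Q it was 1.34 ± 0.319 (edgeR adjusted p = 0.00341). The annotated Rtl1 transcript lies opposite Meg3 and Rian, and the strand setting of the counts was not stated, so reads of Rtl1 and its antisense partners could not be told apart.

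The Snrpn-Ndn locus on chromosome 7, the mouse counterpart of the Prader-Willi region, also rose throughout, 5 of 5 paternally expressed genes in each mutant, with a median of 0.76 in H4K91R and 0.71 in H4K91Q. The calls of Snrpn itself were not stable. Again, 20.9% of all genes tested rose in H4K91R and 22.4% in H4K91Q. Magel2 (chr7:62376979-62381640, plus strand), of the MAGE family, had 25.3, 22.6 and 16.9 CPM in the H4K91R libraries, 22.1, 18.2 and 17.7 CPM in the H4K91Q libraries and 6.37, 5.74 and 5.76 CPM in the H4WT libraries. No mutant library overlapped H4WT, and the change was 1.88 ± 0.161 in H4K91R (edgeR adjusted p = 5.45e-07) and 1.71 ± 0.159 in H4K91Q (edgeR adjusted p = 1.68e-06). Ndn, encoding necdin of postmitotic neurons, averaged 185 ± 13.2 CPM in H4K91R, 179 ± 16.7 CPM in H4K91Q and 109.5 ± 13.9 CPM in H4WT libraries (SD, n = 3 each), a change of 0.76 ± 0.0962 in H4K91R and 0.71 ± 0.0957 in H4K91Q (edgeR adjusted p = 2.06e-05 and 3.95e-05). Mkrn3, a makorin ubiquitin ligase, changed by 0.55 ± 0.143 in H4K91R and 0.57 ± 0.139 in H4K91Q. Peg12, a relative of the GSK3-binding protein FRAT, changed by 0.68 ± 0.12 in H4K91R and 0.63 ± 0.117 in H4K91Q, and 2.18% of its 31-base words also occur in other genes of the table, mostly Frat1.

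Snrpn (chr7:59982495-60450177, minus strand), a protein of the spliceosome, was close to the limit of the counts and its call is the least secure of the locus. Its levels were 2.88, 4.01 and 4.53 CPM in the H4K91R libraries, 1.93, 4.43 and 3.75 CPM in the H4K91Q libraries and 0.962, 0.482 and 2.94 CPM in the H4WT libraries, from 8, 13 and 24 counts in H4WT. H4WT replicate 3 lay inside the range of the mutant libraries. The change of 1.69 ± 0.568 in H4K91R (edgeR adjusted p = 0.0323) ended without H4WT replicate 2 (0.94, edgeR adjusted p = 0.14), as it did without H4WT replicate 1, H4K91R replicate 2 or H4K91R replicate 3. That of 1.53 ± 0.554 in H4K91Q (edgeR adjusted p = 0.0443) ended without H4WT replicate 2 (0.77, edgeR adjusted p = 0.217) and in 5 more of the 9 fits that leave out a library. Both calls also ended with no filter on low counts and with libraries thinned to the smallest total, and that in H4K91Q with the compared groups only. A joint test over the 3 genotypes did not call Snrpn (edgeR adjusted p = 0.0591). Snurf, which is made from the same transcription unit and holds 8.75% of the 31-base words of Snrpn, was looked up after these values were seen. It had 78, 80.7 and 95.7 CPM in the H4K91R libraries, 70.3, 89.5 and 78.2 CPM in the H4K91Q libraries and 39.6, 44.3 and 41.6 CPM in the H4WT libraries, without overlap between a mutant and H4WT, and changes of 1.01 ± 0.104 in H4K91R (edgeR adjusted p = 3.01e-06) and 0.92 ± 0.103 in H4K91Q (edgeR adjusted p = 8.16e-06).

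**Figure D3:**
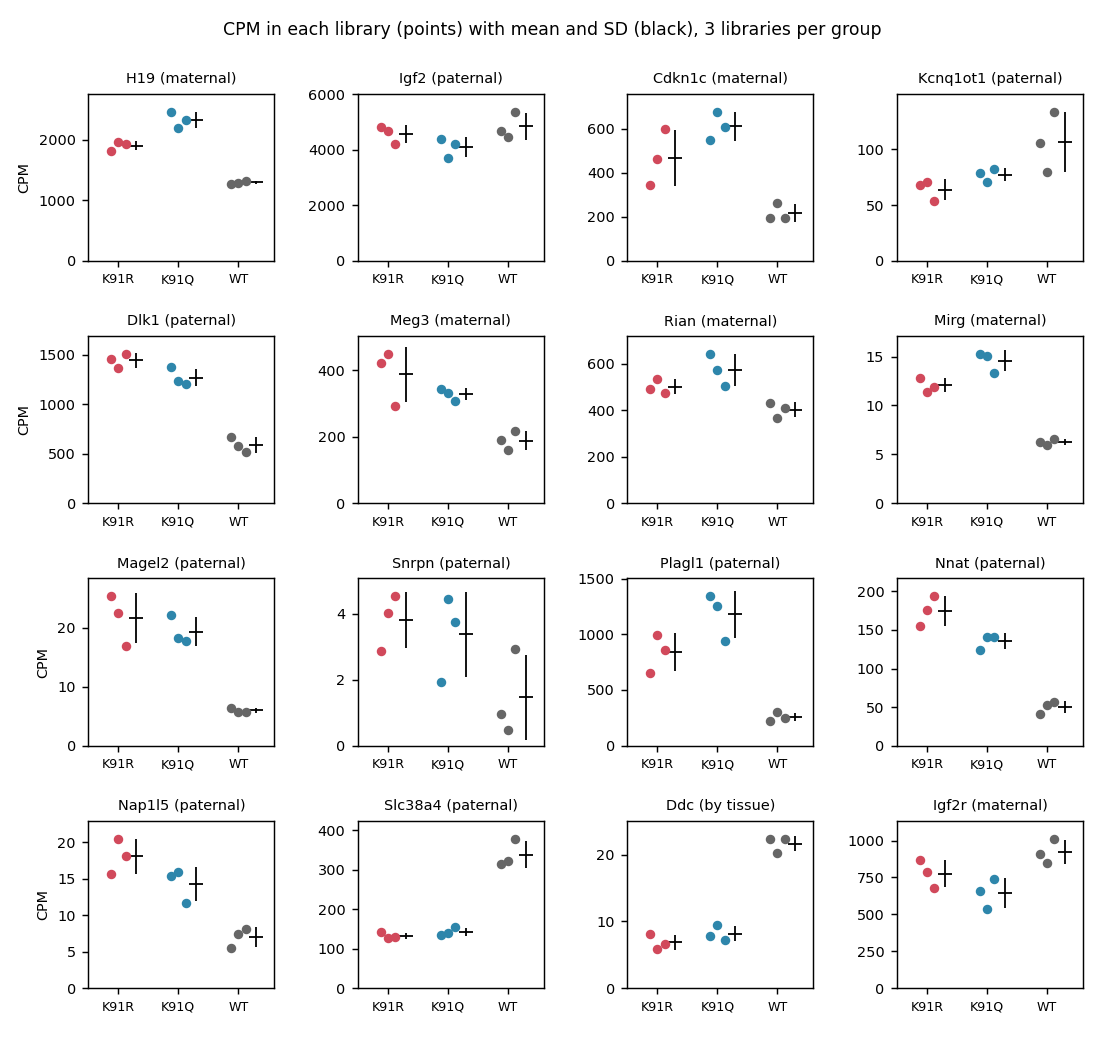
CPM of 16 imprinted genes in each of the 3 H4K91R, 3 H4K91Q and 3 H4WT libraries (points, axes from 0), with the group mean and SD in black. For Dlk1 the mutant libraries lie between 1203 and 1507 CPM and the H4WT libraries between 518 and 672 CPM, while for Slc38a4 and Ddc the H4WT libraries lie above all others.

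At the H19-Igf2 locus on chromosome 7 the maternally expressed noncoding RNA rose in both mutants, and the paternally expressed growth factor did not. H19 (chr7:142575530-142578146, minus strand) had 1817, 1971 and 1926 CPM in the H4K91R libraries, 2471, 2202 and 2335 CPM in the H4K91Q libraries and 1272, 1293 and 1327 CPM in the H4WT libraries. The groups were fully separated, with H4K91Q highest and H4WT lowest. The change was 0.55 ± 0.0682 in H4K91R (edgeR adjusted p = 1.50e-05) and 0.85 ± 0.0684 in H4K91Q (edgeR adjusted p = 5.60e-07), and between the mutants 0.29 ± 0.0679 (H4K91Q minus H4K91R, edgeR adjusted p = 0.0244). Igf2 (chr7:142650768-142666816, minus strand) had 4829, 4668 and 4199 CPM in the H4K91R libraries, 4371, 3698 and 4224 CPM in the H4K91Q libraries and 4669.9, 4468 and 5376 CPM in the H4WT libraries. H4K91R and H4WT overlapped, with a change of -0.083 ± 0.0895 that did not pass the test (edgeR adjusted p = 0.479). The 3 H4K91Q libraries lay just under the H4WT libraries, and Igf2 fell by 0.24 ± 0.0896 there (edgeR adjusted p = 0.041). That call ended under 3 other settings, among them library size scaling (-0.067, edgeR adjusted p = 0.529), and in 5 of the 9 fits that leave out a library.

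The Kcnq1-Cdkn1c locus lies further along chromosome 7. Kcnq1ot1 (chr7:143213111-143296547, minus strand), the paternally expressed noncoding RNA that silences its neighbours on that chromosome, had 67.6, 70.7 and 53.4 CPM in the H4K91R libraries, 79.1, 70.9 and 82 CPM in the H4K91Q libraries and 106, 79.5 and 134 CPM in the H4WT libraries. All H4K91R libraries were below all H4WT libraries, and it fell by 0.72 ± 0.173 there (edgeR adjusted p = 0.00664). H4K91Q overlapped H4WT through H4WT replicate 2, and its change of -0.45 ± 0.17 did not pass the test (edgeR adjusted p = 0.054), though it did under 5 of 19 alternatives, among them that without H4WT replicate 2 (-0.63, edgeR adjusted p = 0.00139). Without H4WT replicate 3 it was -0.25 (edgeR adjusted p = 0.159), and by library size scaling -0.27 (edgeR adjusted p = 0.189). Kcnq1ot1 lies opposite Kcnq1 within the same interval.

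Cdkn1c (chr7:143458339-143461059, minus strand), a maternally expressed inhibitor of cyclin-dependent kinases that takes cells out of the cycle, had 343, 464 and 599 CPM in the H4K91R libraries, 549, 679.6 and 611 CPM in the H4K91Q libraries and 193, 263 and 194 CPM in the H4WT libraries. No mutant library overlapped H4WT, and it rose by 1.11 ± 0.204 in H4K91R (edgeR adjusted p = 0.0019) and 1.49 ± 0.205 in H4K91Q (edgeR adjusted p = 3.42e-04). Phlda2 (chr7:143501545-143503145, minus strand), known in mice as a restraint on placental growth, had 0.345, 0.944 and 0.886 CPM in the H4K91R libraries, 1.59, 2.39 and 3.05 CPM in the H4K91Q libraries and 0.962, 1.52 and 1.47 CPM in the H4WT libraries, or 6, 12 and 9 counts in H4K91R. It lay lowest in H4K91R and highest in H4K91Q, with no overlap between any 2 groups. Neither change against H4WT passed the test (-1.0 ± 0.422 in H4K91R, edgeR adjusted p = 0.0664, and 0.74 ± 0.328 in H4K91Q, edgeR adjusted p = 0.0777), whereas the difference between the mutants did (1.75 ± 0.374, edgeR adjusted p = 0.0175). With a replicate block both changes against H4WT passed (-0.91 in H4K91R, edgeR adjusted p = 0.0385, and 0.81 in H4K91Q, edgeR adjusted p = 0.0183), and that in H4K91Q also under library size scaling, upper quartile scaling and without H4K91Q replicate 1. Ascl2, a transcription factor of the trophoblast, averaged 0.924 ± 0.086 CPM in H4K91R, 1.61 ± 0.702 CPM in H4K91Q and 1.11 ± 0.553 CPM in H4WT libraries (SD, n = 3 each) and passed no test.

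Plagl1 had the largest rise of all 38 genes in H4K91Q, and Nnat the largest after Magel2 in H4K91R. Plagl1 (chr10:13090832-13131694, plus strand), a paternally expressed zinc finger factor with targets among other imprinted genes in mice, had 656, 998 and 862 CPM in the H4K91R libraries, 1342, 1258 and 937 CPM in the H4K91Q libraries and 225, 299 and 246 CPM in the H4WT libraries. Its lowest mutant library stood above 2 times its highest H4WT library. It rose by 1.71 ± 0.184 in H4K91R (edgeR adjusted p = 4.10e-05) and by 2.2 ± 0.186 in H4K91Q (edgeR adjusted p = 9.57e-06). Nnat (chr2:157560078-157562525, plus strand), neuronatin, a small membrane protein of developing brain whose gene lies in an intron of Blcap on the other strand, had 155, 175 and 194 CPM in the H4K91R libraries, 124, 142 and 141 CPM in the H4K91Q libraries and 41.4, 52.9 and 56.6 CPM in the H4WT libraries. The order was H4K91R, H4K91Q, H4WT without overlap, with rises of 1.79 ± 0.113 in H4K91R (edgeR adjusted p = 7.64e-08) and 1.42 ± 0.112 in H4K91Q (edgeR adjusted p = 6.31e-07).

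Nap1l5 (chr6:58905233-58907126, minus strand), a relative of nucleosome assembly proteins that lies in an intron of Herc3, had 15.6, 20.4 and 18 CPM in the H4K91R libraries, 15.3, 15.9 and 11.6 CPM in the H4K91Q libraries and 5.53, 7.33 and 8.08 CPM in the H4WT libraries. All mutant libraries were above H4WT, and it rose by 1.35 ± 0.166 in H4K91R and 1.02 ± 0.164 in H4K91Q (edgeR adjusted p = 1.51e-05 and 1.73e-04). Mest, a hydrolase-like protein of mesodermal tissue and host of the microRNA pair shown, averaged 1617 ± 39.8 CPM in H4K91R, 1862 ± 169 CPM in H4K91Q and 1183 ± 75.5 CPM in H4WT libraries (SD, n = 3 each) and rose by 0.45 ± 0.0781 in H4K91R and 0.65 ± 0.0782 in H4K91Q. Peg13, a noncoding RNA in an intron of Trappc9, averaged 53.6 ± 4.15 CPM in H4K91R, 40.9 ± 2.88 CPM in H4K91Q and 31.5 ± 2.48 CPM in H4WT libraries (SD, n = 3 each). It rose by 0.76 ± 0.0914 in H4K91R and 0.37 ± 0.0906 in H4K91Q, and was lower in H4K91Q than in H4K91R (-0.39 ± 0.0873, edgeR adjusted p = 0.0211). Gnas, the stimulatory G protein subunit, rose by 0.32 ± 0.0739 in H4K91R and 0.35 ± 0.0739 in H4K91Q, and its antisense partner Nespas passed no test (-0.15 ± 0.383 and 0.36 ± 0.343, from 6 to 44 counts a library).

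In both comparisons 5 genes fell. Slc38a4 (chr15:96994816-97055956, minus strand), a paternally expressed amino acid transporter, had 142, 127 and 130.1 CPM in the H4K91R libraries, 135, 140.1 and 154 CPM in the H4K91Q libraries and 314, 324 and 379 CPM in the H4WT libraries. All mutant libraries lay below all H4WT libraries, and it fell by 1.35 ± 0.0844 in H4K91R (edgeR adjusted p = 4.96e-08) and 1.25 ± 0.0835 in H4K91Q (edgeR adjusted p = 1.71e-07). Ddc (chr11:11814101-11898144, minus strand), the aromatic amino acid decarboxylase that makes dopamine and serotonin, had 8.11, 5.82 and 6.6 CPM in the H4K91R libraries, 7.8, 9.42 and 7.21 CPM in the H4K91Q libraries and 22.4, 20.3 and 22.3 CPM in the H4WT libraries. It was lower in every mutant library and fell by 1.64 ± 0.144 in H4K91R (edgeR adjusted p = 6.99e-07) and 1.4 ± 0.135 in H4K91Q (edgeR adjusted p = 2.29e-06). Grb10, the adaptor next to Ddc that restrains growth factor signalling, fell by 0.22 ± 0.0694 and 0.20 ± 0.0693 (edgeR adjusted p = 0.0196 and 0.0309), calls that ended under library size scaling (-0.030 in H4K91R and -0.026 in H4K91Q) and upper quartile scaling, in H4K91Q also with the replicate block (-0.20, edgeR adjusted p = 0.0562), and in 2 of the 9 fits that leave out a library in H4K91R and 3 in H4K91Q, among them that without H4WT replicate 3 (-0.16 in H4K91R and -0.15 in H4K91Q).

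Impact, an inhibitor of the kinase GCN2 that is abundant in neurons, averaged 139 ± 7.05 CPM in H4K91R, 148 ± 6.27 CPM in H4K91Q and 212 ± 10.6 CPM in H4WT libraries (SD, n = 3 each) and fell by 0.61 ± 0.0681 in H4K91R and 0.52 ± 0.0675 in H4K91Q. Zdbf2, a zinc finger protein whose loss reduces growth in mice, averaged 46.1 ± 3.91 CPM in H4K91R, 49.3 ± 6.35 CPM in H4K91Q and 79.9 ± 13.5 CPM in H4WT libraries (SD, n = 3 each) and fell by 0.78 ± 0.128 in H4K91R and 0.68 ± 0.126 in H4K91Q. The edgeR adjusted p of these 2 genes ran from 6.50e-06 to 6.65e-04.

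At the Igf2r-Airn locus on chromosome 17 the receptor fell in H4K91Q, and the noncoding RNA that silences it in mice passed no test. Igf2r (chr17:12682406-12769706, minus strand), the maternally expressed receptor that takes IGF2 to the lysosome, had 865, 784 and 679 CPM in the H4K91R libraries, 659, 536 and 738 CPM in the H4K91Q libraries and 909, 847 and 1012 CPM in the H4WT libraries. H4K91R overlapped H4WT, with a change of -0.25 ± 0.117 that did not pass the test (edgeR adjusted p = 0.101), while the 3 H4K91Q libraries were below all H4WT libraries, a fall of 0.52 ± 0.117 (edgeR adjusted p = 0.00297). Airn (chr17:12741311-12859884, plus strand), paternally expressed and antisense to Igf2r, had 8.34, 7.71 and 6.3 CPM in the H4K91R libraries, 8.79, 7.72 and 8.5 CPM in the H4K91Q libraries and 7.33, 6.3 and 6.37 CPM in the H4WT libraries. The H4K91Q libraries lay above H4WT and the H4K91R libraries overlapped it, but neither change passed the test (0.19 ± 0.148 in H4K91R and 0.34 ± 0.142 in H4K91Q, edgeR adjusted p = 0.319 and 0.0654). In H4K91Q it passed under library size (0.50, edgeR adjusted p = 0.00899) and upper quartile scaling (0.46, edgeR adjusted p = 0.0155). The strand setting of the counts was not stated, so reads of Airn and Igf2r could not be told apart where the genes overlap. Slc22a3, a maternally expressed cation transporter of the same cluster, averaged 2.77 ± 0.655 CPM in H4K91R, 3.36 ± 0.141 CPM in H4K91Q and 1.76 ± 0.253 CPM in H4WT libraries (SD, n = 3 each). It rose in H4K91Q (0.90 ± 0.225, edgeR adjusted p = 0.00455) and had a change of 0.59 ± 0.242 in H4K91R (edgeR adjusted p = 0.0594), which passed under 5 of 19 alternatives.

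At the Peg3 and Peg10-Sgce loci 1 of 5 genes passed the test, in both mutants. Peg3 (chr7:6703892-6730462, minus strand), a paternally expressed zinc finger protein, had 811, 842 and 769 CPM in the H4K91R libraries, 887, 636 and 967 CPM in the H4K91Q libraries and 822, 1016 and 1127 CPM in the H4WT libraries, and its groups overlapped. Its changes were -0.29 ± 0.148 in H4K91R and -0.25 ± 0.148 in H4K91Q (edgeR adjusted p = 0.132 and 0.19). Zim1 (chr7:6674444-6696540, minus strand), its maternally expressed neighbour, had 36.5, 41.4 and 29 CPM in the H4K91R libraries, 36.6, 21.7 and 29.6 CPM in the H4K91Q libraries and 25.6, 34.2 and 41.9 CPM in the H4WT libraries and passed no test. Usp29, a ubiquitin peptidase read in the opposite direction from the Peg3 promoter region, differed from them: it averaged 27.5 ± 3.11 CPM in H4K91R, 27.1 ± 4.68 CPM in H4K91Q and 14.1 ± 1.35 CPM in H4WT libraries (SD, n = 3 each) and rose by 0.94 ± 0.14 in H4K91R and 0.92 ± 0.137 in H4K91Q (edgeR adjusted p = 8.75e-05 and 9.24e-05). Peg10, another protein from a retrotransposon, changed by -0.056 ± 0.111 in H4K91R and 0.077 ± 0.111 in H4K91Q, and Sgce, epsilon-sarcoglycan, by 0.017 ± 0.069 and 0.091 ± 0.0678, neither past the test. The direction of Peg10 in H4K91R was upwards under library size (0.13) and upper quartile scaling (0.059). The retrocopies Mcts2, in an intron of H13, and Zrsr1, in an intron of Commd1, passed no test either, with changes of -0.21 ± 0.133 and 0.0017 ± 0.253 in H4K91R and 0.084 ± 0.126 and -0.44 ± 0.252 in H4K91Q.

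To set the maternally and paternally expressed genes of a locus side by side within each library, the log2 ratio of CPM plus 0.5 was taken for 6 pairs. With 3 libraries against 3 the exact two-sided permutation test cannot give a p below 0.1, so no ratio can pass 0.05, and within the family of 18 comparisons the smallest adjusted value was 0.138. H19 over Igf2 was -1.26 ± 0.143 in H4K91R, -0.81 ± 0.055 in H4K91Q and -1.89 ± 0.116 in H4WT libraries (mean ± SD, n = 3 each). The 3 groups did not overlap, with differences of 0.63 for H4K91R and 1.09 for H4K91Q against H4WT (exact permutation p = 0.1 each), and 0.45 for H4K91Q against H4K91R (exact permutation p = 0.1). Cdkn1c over Kcnq1ot1 was 2.84 ± 0.582 in H4K91R, 2.98 ± 0.244 in H4K91Q and 1.04 ± 0.614 in H4WT libraries, 3.48 times and 3.83 times the H4WT ratio, with no overlap of either mutant with H4WT (exact permutation p = 0.1 each). For Igf2r over Airn the means were 6.61 ± 0.0322 in H4K91R, 6.18 ± 0.167 in H4K91Q and 7.01 ± 0.177 in H4WT libraries, again without overlap between any groups (exact permutation p = 0.1 each). Reads of these overlapping genes could not be told apart by strand, which limits this ratio, since Airn is far lower than Igf2r.

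Within the Dlk1-Meg3 cluster 2 noncoding RNAs were set over Dlk1. Rian over Dlk1 was -1.52 ± 0.165 in H4K91R, -1.15 ± 0.0899 in H4K91Q and -0.54 ± 0.179 in H4WT libraries, lower in both mutants with no overlap (exact permutation p = 0.1 each), and the H4K91Q libraries lay above the H4K91R libraries. Meg3 over Dlk1 was -1.92 ± 0.396 in H4K91R, -1.95 ± 0.0529 in H4K91Q and -1.65 ± 0.332 in H4WT libraries, with overlap between H4K91R and H4WT (difference -0.27, exact permutation p = 0.6) and none between H4K91Q and H4WT (difference -0.31, exact permutation p = 0.1). Zim1 over Peg3 was -4.5 ± 0.193 in H4K91R, -4.81 ± 0.214 in H4K91Q and -4.86 ± 0.123 in H4WT libraries. H4K91R lay above H4WT without overlap (exact permutation p = 0.1) and H4K91Q overlapped it (exact permutation p = 0.7). A ratio of totals shows that partners changed unequally, and does not give the share of reads from each allele.

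**Figure D4:**
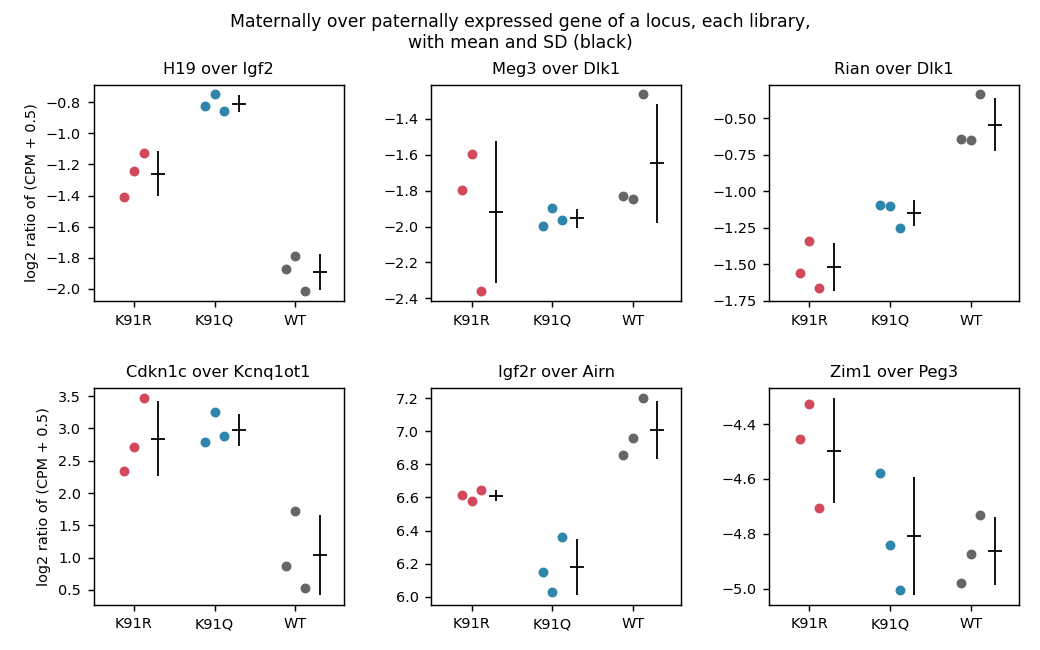
Log2 ratio of (CPM + 0.5) of a maternally over a paternally expressed gene for 6 pairs in H4K91R, H4K91Q and H4WT libraries (points), with mean and SD in black. H19 over Igf2 and Cdkn1c over Kcnq1ot1 lie higher in all mutant libraries than in any H4WT library, and Rian over Dlk1 and Igf2r over Airn lie lower.

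Between the mutants few imprinted genes differed. In H4K91Q against H4K91R, H19 and Phlda2 were higher (2 of 38, 5.26%) and Peg13 was lower (1 of 38, 2.63%), where 2.3% of all genes tested were higher and 2.83% lower. The median log2 difference was 0.083 over the 38 genes and 0.0054 over all genes. The other 35 had differences from -0.44 for Zrsr1 to 0.77 for Ascl2, and a difference that misses the threshold does not show equality. After Ascl2 (0.77 ± 0.41) the next in size were Nespas (0.52 ± 0.347), Plagl1 (0.49 ± 0.178), Zrsr1 (-0.44 ± 0.251), Cdkn1c (0.39 ± 0.20) and Nnat (-0.37 ± 0.106, edgeR adjusted p = 0.0637). Nnat passed the test under 6 of 19 alternatives, among them the replicate block (-0.36, edgeR adjusted p = 0.00869) and DESeq2 (-0.39, adjusted p = 0.0149), and Plagl1 under 2, the replicate block (0.50, edgeR adjusted p = 0.0437) and DESeq2 (0.46, adjusted p = 0.0406). Without H4K91R replicate 3 Meg3 passed (-0.41, edgeR adjusted p = 0.0394). Without H4K91Q replicate 3 Mest (0.27, edgeR adjusted p = 0.0463) and Mcts2 (0.42, edgeR adjusted p = 0.0448) passed. None of the 3 calls held under all alternatives: those of H19 ended in 4, of Phlda2 in 2 and of Peg13 in 3 of the 9 fits without a library. That of Phlda2 also ended with libraries thinned to the smallest total (1.4, edgeR adjusted p = 0.0768). A joint test over the 3 genotypes called 27 of the 38 genes (71.1%), where it called 50.6% of all genes.

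Neighbours of the imprinted genes were read as a further list: 33 genes of the same clusters that are imprinted in some tissues or not at all, of which 28 were tested. In H4K91R 7 rose and 8 fell, with a median log2 change of -0.032, and in H4K91Q 10 rose and 8 fell, with a median of 0.045. Over all genes 20.9% rose and 25.1% fell in H4K91R and 22.4% rose and 23.8% fell in H4K91Q. In H4K91Q against H4K91R 0 of the 28 were higher and 1 was lower, where 2.3% of all genes were higher and 2.83% lower. Apart from host genes, those named had the 4 largest calls in a mutant. A value given for 1 mutant alone therefore does not show a difference between the mutants. Klf14, a transcription factor gene near Mest that is expressed from the maternal allele, had 15, 20.8 and 24.7 CPM in the H4K91R libraries, 25.1, 21.5 and 20.2 CPM in the H4K91Q libraries and 5.05, 4.78 and 3.8 CPM in the H4WT libraries, and rose by 2.11 ± 0.19 in H4K91R (edgeR adjusted p = 1.14e-06) and 2.28 ± 0.185 in H4K91Q (edgeR adjusted p = 8.23e-07). Kcnk9, a potassium channel near Peg13, rose by 2.37 ± 0.411 in H4K91R, where it averaged 2.44 CPM against 0.389 CPM in H4WT. Begain, beside Dlk1, rose by 1.5 ± 0.132 in H4K91R, and Dio3, the deiodinase at the far end of that cluster, by 1.36 ± 0.278 in H4K91Q. Tfpi2, near Peg10, averaged 0.458 CPM in H4K91R, 0.219 CPM in H4K91Q and 1.84 CPM in H4WT libraries and fell by 1.66 ± 0.624 in H4K91R and 2.79 ± 0.662 in H4K91Q, and Adam23, near Zdbf2, fell by 1.47 ± 0.306 in H4K91Q. Among the host genes, H13, in which Mcts2 lies, fell in both (-0.40 ± 0.0676 in H4K91R and -0.51 ± 0.0672 in H4K91Q), whereas Blcap, the host of Nnat, passed neither test (0.14 ± 0.0755 and -0.0026 ± 0.0746).

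Of 22 listed factors that set or keep imprints, 4 rose and 3 fell in H4K91R and 8 rose and 1 fell in H4K91Q. Their medians were 0.11 in H4K91R and 0.21 in H4K91Q. The shares of all genes tested were 20.9% higher and 25.1% lower in H4K91R, and 22.4% higher and 23.8% lower in H4K91Q. The 3 that fell in H4K91R, named after their values were seen like Dnmt3a, were Dnmt3l, a cofactor of germ line methylation (-1.83 ± 0.62, edgeR adjusted p = 0.0426), the de novo methyltransferase Dnmt3b (-0.91 ± 0.239, edgeR adjusted p = 0.011) and Smchd1 (-0.23 ± 0.0687, edgeR adjusted p = 0.0137). In H4K91Q Dnmt3b rose by 1.15 ± 0.216 (edgeR adjusted p = 0.00178) and Smchd1 fell by 0.19 ± 0.0681 (edgeR adjusted p = 0.038). Dnmt3a, the other de novo methyltransferase, rose by 0.38 ± 0.0724 in H4K91R and 0.38 ± 0.0721 in H4K91Q. Zfp57, the zinc finger protein that binds methylated imprinting control regions, had 51.6, 53.3 and 46.7 CPM in the H4K91R libraries, 49.3, 50.2 and 46.6 CPM in the H4K91Q libraries and 45.7, 36.8 and 44.8 CPM in the H4WT libraries, a rise of 0.27 ± 0.0935 in H4K91R (edgeR adjusted p = 0.029) and a change of 0.22 ± 0.0921 in H4K91Q that did not pass (edgeR adjusted p = 0.0705). Zfp445, which shares that role, rose by 0.23 ± 0.0685 in H4K91R and 0.19 ± 0.068 in H4K91Q. Uhrf1, which brings DNMT1 to replicated DNA, rose by 0.23 ± 0.0716 and 0.22 ± 0.071, while Dnmt1 (0.10 ± 0.0795 and -0.016 ± 0.0792) and Trim28, the corepressor of ZFP57 (0.0069 ± 0.0832 and 0.06 ± 0.0831), passed neither test. Dppa3, which protects imprints in the early embryo, had 0, 2 and 1 counts in H4K91R, 65, 82 and 29 counts in H4K91Q and 1, 16 and 0 counts in H4WT libraries. It was higher in H4K91Q than in H4K91R (edgeR adjusted p = 0.00313) and than in H4WT (edgeR adjusted p = 6.74e-04).

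Markers of several cell types moved in the same comparisons. Beside the counts of each list stand the shares of all genes tested, 20.9% higher and 25.1% lower in H4K91R. In H4K91Q these shares were 22.4% and 23.8%. Of the 14 neuron markers 11 rose in H4K91R and 11 in H4K91Q, where 1 fell. The summed CPM of 12 neural progenitor markers ran from 813 to 891 in H4K91R, from 583 to 678 in H4K91Q and from 324 to 384 in H4WT libraries. The neuron and progenitor sums were higher in every mutant library than in any H4WT library. That of 10 smooth muscle markers ran from 499 to 785 in H4K91R, from 475 to 536 in H4K91Q and from 4101 to 4938 in H4WT libraries, and all 9 tested fell in each mutant. That of 12 fibroblast markers ran from 7387 to 8559 in H4K91R, from 7810.3 to 8669.7 in H4K91Q and from 9202 to 10266 in H4WT libraries. The smooth muscle and fibroblast sums lay lower in every mutant library. Of the fibroblast markers, however, 4 rose and 3 fell in H4K91R, with a median log2 change of 0.055. In H4K91Q 5 of them rose and 3 fell, with a median of 0.34. A sum follows its most abundant genes, so the lower fibroblast sum does not mean that most fibroblast markers fell. Fn1, fibronectin, picked out after its values were seen, had 969, 549 and 396 CPM in the H4K91R libraries, 446, 355 and 559.7 CPM in the H4K91Q libraries and 3129, 2338 and 4095 CPM in the H4WT libraries.

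Pluripotency markers, 12 in number, summed to 195 to 221 CPM in H4K91R, 335 to 489.9 CPM in H4K91Q and 306 to 395 CPM in H4WT libraries. In H4K91R 0 of them rose and 9 fell, with a median log2 change of -1.41. In H4K91Q 6 rose and 1 fell, with a median of 1.16, although the H4K91Q and H4WT sums overlapped. For this list and the next ones, the shares of all genes were 20.9% higher and 25.1% lower in H4K91R, and 22.4% and 23.8% in H4K91Q. Endoderm markers, also 12, summed to 630.3 to 651 CPM in H4K91R, 549.6 to 611 CPM in H4K91Q and 729 to 859 CPM in H4WT libraries, where Alb and Apoa1 were at 0 counts, and of the 10 tested 1 rose and 4 fell in H4K91R and 2 rose and 5 fell in H4K91Q. Trophoblast markers, 12 again, summed to 96.2 to 116 CPM in H4K91R, 137 to 146 CPM in H4K91Q and 116 to 126 CPM in H4WT libraries, and of the 11 tested 0 rose and 4 fell in H4K91R and 3 rose and 0 fell in H4K91Q. All 9 libraries thus held counts of neuron and neural progenitor markers, as the neural label calls for, and of markers of cell types that are not neural. The part of these other lists was likewise not tested.

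**Figure D5:**
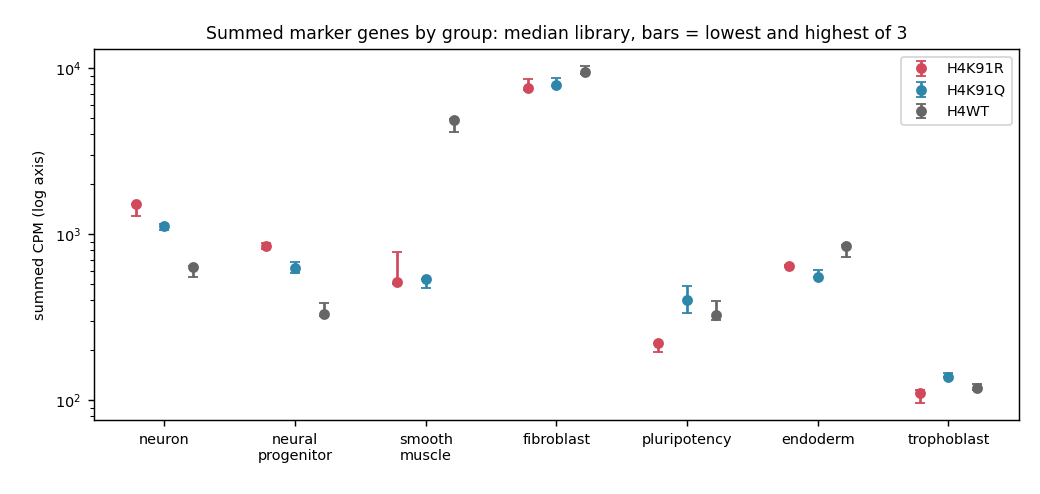
Summed CPM (log axis) of 7 marker lists in H4K91R, H4K91Q and H4WT libraries, as the median library with bars from the lowest to the highest of 3. Neuron and neural progenitor sums are higher in both mutants than in H4WT, and the smooth muscle sum is lower, at most 785 CPM in a mutant library and at least 4101 CPM in H4WT.

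Total counts ran from 8970553 to 28887501 a library, with a median of 16364686, and the 2 shallowest libraries were H4WT replicates 1 and 3. A count of 0 allows up to 3 counts, or 0.111 to 0.367 CPM from the deepest to the shallowest library, a limit for counting error alone. The first principal component of all genes tested, 65.8% of the variance, set the 3 H4WT libraries apart from the 6 mutant libraries.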

How the data were processed

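Per the labels' protocols, RNA was isolated with a QIAGEN RNeasy kit and poly(A) libraries were made with NEBNext Ultra II kits. The deposited table holds estimated counts per Entrez gene as whole numbers, and the submitters' processing notes name Salmon 0.8.2, DESeq2 and mm10 without giving their roles. Neither the annotation nor the strand setting nor any rounding was stated. Salmon shares out reads between transcripts that share sequence, so overlapping genes and near copies can exchange counts. The 9 libraries were assigned by name, and 0 columns were unmapped. Of the 24100 gene IDs, 24045 matched a symbol, and of 140 names on the marker and pathway lists 139 matched.

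Counts were scaled by TMM (factors 0.911 to 1.06), filtered with filterByExpr at a minimum count of 10, which left 14761 genes, and tested with edgeR 4.0.16 (quasi-likelihood, limma 3.58.1, R 4.3.3) in 1 model of all 3 genotypes with no covariate. P-values were adjusted by Benjamini-Hochberg over all genes tested, and the script was tested on simulated data. CPM values are on the TMM scale. Each SE of a log2 change is the size of that change divided by the square root of the edgeR F statistic. Shared 31-base words and transcript lengths come from GENCODE transcripts of GRCm38. Ratios within a locus used CPM plus 0.5. A total of 8970553 to 28887501 counts a library sets the precision.

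The members and the lists were chosen with earlier results of these data known. Values in every library are given for 21 genes: those called with a log2 change of at least 1 in size and a mean of at least 1 CPM in a group, and those in a ratio. Neighbours are named for the 4 largest calls above 1 CPM per mutant, and H13 and Blcap as host genes, added after their values were seen, as were Dnmt3a, Dnmt3b, Dnmt3l, Smchd1 and Fn1. Alternatives were RLE, library size and upper quartile scaling, 2 other filters, DESeq2 1.42.0, limma-voom, a replicate block, the compared groups alone, libraries thinned to the smallest total, other pseudocounts for the ratios, and leaving out each library.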

Additional observations from a re-analysis of the deposited data

Results flagged for a closer look

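Between the mutants, 3 imprinted genes differed by a test of the difference itself. H19 was higher in H4K91Q than in H4K91R by 0.29 on the log2 scale (edgeR adjusted p = 0.0244), and all 3 H4K91Q libraries lay above all 3 H4K91R libraries. Phlda2 was higher in H4K91Q by 1.75 (edgeR adjusted p = 0.0175), again in 3 of 3 libraries, from 37 to 52 counts a library in H4K91Q and 6 to 12 in H4K91R. Peg13 was lower in H4K91Q, with a difference of -0.39 (edgeR adjusted p = 0.0211) and no overlap. Summed pluripotency markers were 335 to 489.9 CPM in H4K91Q and 195 to 221 CPM in H4K91R libraries. Trophoblast sums were also higher in H4K91Q (137 to 146 against 96.2 to 116 CPM). Lower in H4K91Q were the sums of neuron markers (1063 to 1154 against 1290.2 to 1529.9 CPM) and neural progenitor markers (583 to 678 against 813 to 891 CPM). Endoderm sums were lower too (549.6 to 611 against 630.3 to 651 CPM), and smooth muscle and fibroblast sums overlapped. The part of these lists in the differences was not tested.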

How the results depend on the processing

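Over 19 other settings, 2045 of 2166 log2 changes of single imprinted genes kept their direction and their side of the threshold, 47 calls were lost, 35 were gained and 39 values, none of them a called one, changed sign. In every setting 21 of the 25 calls in H4K91R and 24 of the 27 in H4K91Q against H4WT held, and 0 of the 3 between the mutants. Counts of imprinted genes against H4WT stayed within 1.5 times. In H4K91Q against H4K91R the count higher, 2, was 1 with thinned libraries and 0 to 4 when a library was left out. The count lower, 1, was 2 under RLE scaling, DESeq2, the replicate block and the compared groups only, and 0 to 2 when a library was left out. The count over all genes, 756, was 216 to 1157 when a library was left out: 432 without H4K91R replicate 1, 216 without H4K91R replicate 2, 307 without H4K91Q replicate 1, 243 without H4K91Q replicate 2 and 1157 without H4K91Q replicate 3. The cause was not tested. Against H4WT, calls were gained in H4K91R by Peg3 without H4K91Q replicate 2 or H4WT replicate 1, by Igf2r without H4K91R replicate 1 and by Sgce with library size scaling, and in H4K91Q by Sgce with library size and upper quartile scaling and by Zrsr1 without H4WT replicate 2, besides those given with the results.

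Same-numbered libraries correlated at -0.16 to 0.20 in their deviations from the group means, and differently numbered libraries of 2 groups at -0.29 to 0.26. Whether same-numbered libraries shared a batch cannot be told from these values or from the labels. With a replicate block 1039 genes differed between the mutants, and 6774 in H4K91R and 6862 in H4K91Q against H4WT, in place of 6787 and 6811.

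Scaling moved the median of all genes to 0.15 in H4K91R and 0.18 in H4K91Q with library size alone and to 0.081 and 0.13 with the upper quartile, under which 4063 genes were higher and 2522 lower in H4K91R and 4777 and 2432 in H4K91Q. Imprinted genes then numbered 21 higher and 5 lower in H4K91R and 23 and 5 in H4K91Q by library size, and 20 and 5 and 23 and 5 by upper quartile.

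Reversed against H4WT in H4K91R were Igf2 (0.10 by library size, 0.031 by upper quartile, -0.13 to 0.0052 leaving out a library), Peg10 (0.13, 0.059, and -0.12 to 0.016), Zrsr1 (-0.00082 with the replicate block, -0.010 thinned, -0.23 to 0.17), Nespas (0.025 by library size, 0.032 thinned, -0.36 to 0.098), Ascl2 (-0.64 to 0.23), Zim1 (-0.062 to 0.24) and Sgce (-0.0046 to 0.050). In H4K91Q they were Peg10 (-0.033 to 0.19) and Mcts2 (-0.012 to 0.20). Between the mutants they were Usp29 (0.085 thinned), Snrpn (0.10 thinned), Mkrn3 (-0.0091 by RLE, -0.0097 by DESeq2) and Grb10 (-0.0074 in both), and without a library also Peg3 (-0.083 to 0.19), Usp29 (-0.15 to 0.10), Snrpn (-0.44 to 0.14), Ndn (-0.11 to 0.021), Mkrn3 (-0.071 to 0.066), Peg12 (-0.10 to 0.0063), Grb10 (-0.021 to 0.039), Gnas (-0.020 to 0.085) and Zdbf2 (-0.0079 to 0.16).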
